A study of Mus musculus with 5 samples.

Results

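The forkhead genes encode transcription factors that share a winged-helix DNA-binding domain, and many of them specify organs in the embryo. CBX2 binding at 9 of these genes was followed in mouse embryonic fibroblasts (MEFs): Foxa1, Foxa2, Foxb1, Foxc1, Foxc2, Foxd3, Foxe1, Foxf2 and Foxl2. The genes were taken as a named list out of 22380 protein-coding genes of the GENCODE vM1 annotation, and for each gene the called CBX2 peaks that overlapped its body, extended by 5 kb on each side, were collected. The remaining 35 mouse forkhead genes served as the family for comparison.

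CBX2 is a chromobox subunit of Polycomb Repressive Complex 1 (PRC1), which compacts chromatin and holds developmental genes silent. Its chromodomain can bind histone H3 trimethylated at lysine 27, the mark written by Polycomb Repressive Complex 2 (PRC2). In mammals both complexes gather at CpG islands, stretches of DNA rich in the CpG dinucleotide, and genes for transcription factors of other lineages are well-known Polycomb targets in fibroblasts.

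The Control library came from the parental MEFs, a line made from 1 mouse embryo that carries loxP sites in the Eed gene (EED floxed). Eed encodes a core subunit of PRC2. The EZHIP and K27M libraries came from cells of the same line that stably expressed, from a lentivirus, human EZHIP or histone H3.3 with methionine in place of lysine 27. EZHIP is a protein of posterior fossa ependymomas, H3.3 K27M is a histone mutant of diffuse midline gliomas, and both inhibit PRC2. Lentiviral vectors with an EF1a promoter and puromycin selection made these cells, whereas the labels call the Control cells parental, so the transgene and the transduction cannot be told apart. Each group had 1 library and 1 list of broad peaks, with no measure of height. The read depth is unknown, no replicate error could be given, no test was possible, and a gene without a peak is a gene where none was called. The peak positions hold no expression values, so the cell type could not be checked against its marker genes.

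There were 289 called peaks in Control, 255 in EZHIP and 327 in K27M, with median widths of 7400, 6800 and 9600 bp in that order. Where a forkhead gene had a peak in a list, it had exactly 1 there. Sequence that occurs more than once in the genome, where reads cannot be placed with certainty, made up between 0.595 and 5.56% of the 32-base words sampled from these peaks.

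CBX2 peaks lay at 7 of the 9 genes in Control, at 5 in EZHIP and at 7 in K27M. Over all protein-coding genes the same rule found a peak at 1.49% of genes in the Control list, at 1.44% in the EZHIP list and at 1.78% in the K27M list. Foxa1, Foxa2, Foxb1, Foxd3 and Foxl2 had a peak in every list. Foxe1 and Foxf2 had one in Control and K27M, and Foxc1 and Foxc2 had none in any list. The 5′ end of the gene lay inside a peak for 4 genes in Control (Foxa1, Foxa2, Foxb1 and Foxd3), for 4 in EZHIP (Foxa1, Foxb1, Foxd3 and Foxl2) and for 7 in K27M. Of all protein-coding starts, 0.903% lay in Control peaks, 0.894% in EZHIP peaks and 1.19% in K27M peaks. Among the 11908 starts with a CpG island window within 1000 bp the share was 1.40% for Control peaks, 1.39% for EZHIP peaks and 1.85% for K27M peaks. The list of genes was drawn up with these peak lists known, so the distance of these counts from the background is not independent evidence about forkhead genes.

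**Figure D1:**
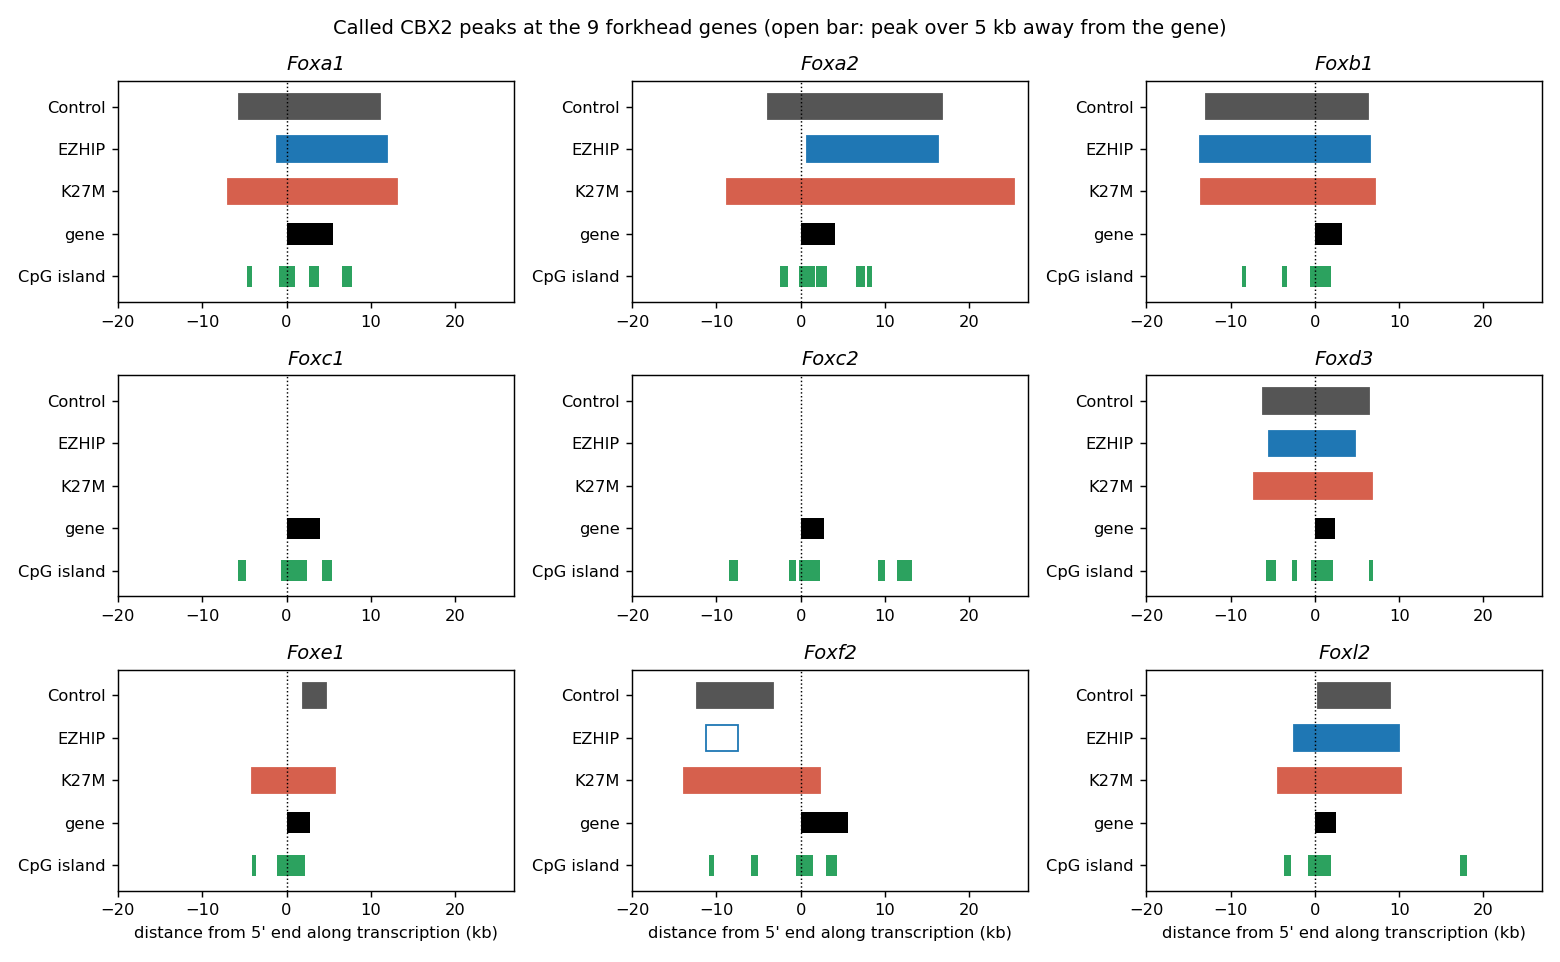
Called CBX2 peaks in the Control, EZHIP and K27M lists at the 9 forkhead genes, drawn by distance in kb from the annotated 5′ end (dotted line) along the direction of transcription, with the gene body in black and CpG islands in green. Foxb1 had nearly the same peak in all 3 lists, the K27M peak was the widest at each of the 7 genes with peaks, and the open EZHIP bar at Foxf2 is a peak of 3.8 kb that lay more than 5 kb from the gene.

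The DNA at the 5′ ends is shown for 4 genes that stand for the different outcomes: Foxb1, whose peak was nearly the same in all lists, Foxa2, whose start was outside the EZHIP peak, Foxl2, whose start was outside the Control peak, and Foxc1, which had no peak. Each line gives 250 bases before the annotated 5′ end and 50 bases from it on, 5′ to 3′ on the strand of the gene, read from the NCBIM37 assembly (mm9). Capitals mark CpG dinucleotides.
Foxb1 (chr9:69608698-69608997, minus strand): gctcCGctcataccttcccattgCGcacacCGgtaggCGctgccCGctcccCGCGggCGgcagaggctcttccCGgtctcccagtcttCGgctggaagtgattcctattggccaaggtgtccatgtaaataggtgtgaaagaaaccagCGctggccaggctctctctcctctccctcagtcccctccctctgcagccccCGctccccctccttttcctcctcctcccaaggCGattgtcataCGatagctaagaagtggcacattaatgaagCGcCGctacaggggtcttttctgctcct
Foxa2 (chr2:147872656-147872955, minus strand): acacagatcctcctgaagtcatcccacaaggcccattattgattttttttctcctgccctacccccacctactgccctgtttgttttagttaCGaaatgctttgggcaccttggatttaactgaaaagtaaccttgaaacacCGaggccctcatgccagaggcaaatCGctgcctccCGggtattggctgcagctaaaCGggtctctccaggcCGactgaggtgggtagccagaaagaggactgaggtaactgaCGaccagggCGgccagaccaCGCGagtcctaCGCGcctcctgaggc
Foxl2 (chr9:98855776-98856075, plus strand): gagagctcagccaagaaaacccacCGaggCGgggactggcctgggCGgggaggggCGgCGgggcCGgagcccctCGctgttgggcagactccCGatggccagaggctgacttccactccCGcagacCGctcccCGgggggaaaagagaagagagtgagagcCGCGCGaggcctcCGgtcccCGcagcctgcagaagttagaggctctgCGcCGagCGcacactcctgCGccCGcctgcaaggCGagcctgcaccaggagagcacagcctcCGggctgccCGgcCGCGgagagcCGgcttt
Foxc1 (chr13:31898265-31898564, plus strand): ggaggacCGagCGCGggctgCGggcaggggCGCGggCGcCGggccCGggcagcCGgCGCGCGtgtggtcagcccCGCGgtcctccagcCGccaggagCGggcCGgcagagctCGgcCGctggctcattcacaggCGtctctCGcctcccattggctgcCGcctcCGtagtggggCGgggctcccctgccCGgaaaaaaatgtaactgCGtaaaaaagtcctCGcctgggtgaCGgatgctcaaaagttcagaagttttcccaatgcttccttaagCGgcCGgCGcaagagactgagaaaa

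These windows held 16 CG dinucleotides at Foxb1, 12 at Foxa2, 27 at Foxl2 and 32 at Foxc1. The median over 22375 protein-coding starts was 11, and 11.1% of those windows held at least as many as Foxc1. The start of Foxc1, without a peak, was thus richer in CG than those of Foxb1 and Foxa2, which lay in CBX2 peaks in Control. Foxa1 and Foxd3, whose starts also lay in Control peaks, held 25 each. Foxc2, the other gene without a peak, held 10, the lowest count of the 9 genes, so the genes without a peak did not share a high count. Of the 9 genes, Foxc2 alone had the letters TATAAA on either strand of its window, against 13.4% of all windows. The RefSeq promoter table of GRCm38.p6 held an entry for 6 of the 9 genes. It began at the same base for 4 of them (Foxc1, Foxd3, Foxf2 and Foxl2) and was shifted by 10 bp at Foxa1. The Foxa2 entry did not match the window shown, so RefSeq places that start elsewhere. The exact 5′ end therefore depends on the annotation, and so does the place of the Foxa2 start outside the EZHIP peak.

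Foxa1 and Foxa2 encode pioneer factors of endodermal organs such as liver, pancreas and lung, and Foxa2 also acts in the node, notochord and floor plate. At Foxa1 (chromosome 12, 58641618 to 58647108, minus strand) the EZHIP peak was 13 kb wide, the Control peak 16.8 kb and the K27M peak 20 kb. At Foxa2 (chromosome 2, 147868613 to 147872705, minus strand) the EZHIP peak measured 15.6 kb, the Control peak 20.6 kb and the K27M peak 34 kb, the widest peak at any of the 9 genes. Both genes therefore had the order EZHIP, Control, K27M from narrow to wide.

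The EZHIP peaks at this gene pair were shorter on the upstream side. The upstream edge lay 4.6 kb closer to the gene in EZHIP than in Control at Foxa1, and also 4.6 kb closer at Foxa2, while the downstream edge moved outward by 0.8 kb at Foxa1 and inward by 0.4 kb at Foxa2. At Foxa1 the EZHIP peak still began 1.09 kb upstream of the 5′ end. At Foxa2 it began 705 bp downstream of it, so that the start was left outside and 82.8% of the gene body was covered. Foxa2 has 4 annotated transcript starts, and counting any of them as the start places Foxa2 inside the EZHIP peak as well, which raises the EZHIP count to 5 of 9 genes. In K27M both edges lay further out than in Control, by 1.2 kb upstream and 2 kb downstream at Foxa1, and by 4.8 kb and 8.6 kb at Foxa2. The Foxa2 peaks of all lists also contained the start of the long non-coding RNA gene 9030622O22Rik, 6.77 kb downstream of the Foxa2 start, and the Foxa1 peaks overlapped no other annotated gene.

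Foxb1, which acts in the developing hypothalamus and spinal cord, had the most constant peak. It was 19.2 kb wide in Control and slightly wider elsewhere, with 20.2 kb in EZHIP and 20.6 kb in K27M (gene on chromosome 9, 69605517 to 69608747, minus strand). The stretch shared by all lists was 19.2 kb, or 92.3% of the stretch covered by any of them. No edge moved from Control by more than 0.8 kb, which is 4 bins of the 200 bp grid on which the peaks were called. Most of this peak lay upstream of the gene, out to 12.9 kb from the start in Control, and it contained the start of B230323A14Rik, a long non-coding RNA gene on the opposite strand.

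Foxd3, a gene of pluripotent cells and the neural crest, had a peak centred near its start in each list. The Control peak measured 12.6 kb, the EZHIP peak 10.2 kb and the K27M peak 14 kb (gene on chromosome 4, 99322990 to 99325362, plus strand). In EZHIP the edges lay 0.8 kb further in upstream and 1.6 kb further in downstream than in Control, and in K27M they lay 1 kb and 0.4 kb further out. All lists covered the gene body completely and also held the start of Gm12688, a non-coding transcript on the opposite strand that begins 1.32 kb upstream of Foxd3. The shared stretch was 72.9% of the stretch covered by any.

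Foxl2, a gene of ovarian granulosa cells and the eyelid, showed a different order of lists. Its peak was narrowest in Control with 8.6 kb, followed by EZHIP with 12.4 kb and K27M with 14.6 kb (gene on chromosome 9, 98856026 to 98858545, plus strand). The Control peak began 375 bp downstream of the 5′ end and the start was not inside. In EZHIP the upstream edge lay 2.8 kb further out than in Control, and in K27M 4.8 kb further out, so that both peaks held the start. Both also held the start of Foxl2os, a non-coding gene transcribed in the opposite direction from 0.297 kb upstream of the Foxl2 start. Since the Control edge was within 1000 bp of the start, a looser rule that accepts a peak within that distance gives 5 genes in Control, 5 in EZHIP and 7 in K27M.

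Foxe1, which is required for the thyroid and the palate, had the narrowest Control peak of the 9 genes. It was 2.8 kb wide, began 1.92 kb downstream of the 5′ end and covered 31.5% of the gene body (chromosome 4, 46356481 to 46359284, plus strand). No EZHIP peak was called there, and the nearest one in that list lay 1627 kb away. The K27M peak was 9.8 kb wide, 3.5 times the Control width, and ran from 4.08 kb upstream to 5.72 kb downstream of the start. Of the added length, 6 kb lay on the upstream side and 1 kb downstream. The K27M peak alone also held the start of Gm12446, a non-coding gene on the opposite strand. That start lies 1.906 kb downstream of the Foxe1 start, and the Control peak began at 1.92 kb. The Control peak thus missed it by less than 1 bin of 200 bp.

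Foxf2, a gene of the mesenchyme around the gut and the palate, had its Control peak upstream of the gene. That peak was 9 kb wide and ended 3.29 kb before the 5′ end (chromosome 13, 31717685 to 31723272, plus strand). In K27M it was 16.2 kb wide and ran 2.31 kb past the start, with 5.6 kb added on the side of the gene. The EZHIP list had no peak within 5 kb of Foxf2, but it held one of 3.8 kb that ended 7.49 kb upstream, inside the stretch of the Control peak. With 10 kb in place of 5 kb on each side, Foxf2 counts as having an EZHIP peak and the EZHIP count becomes 6 of 9 genes. With the gene body alone, the Control peak of Foxf2 is not counted and the Control count becomes 6.

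**Figure D2:**
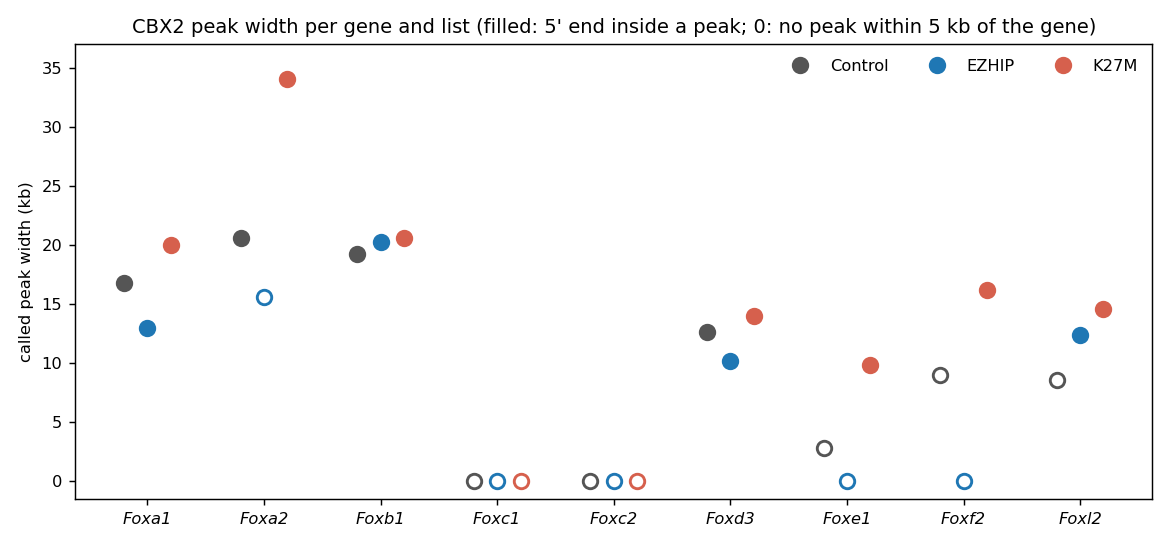
Width in kb (vertical axis) of the called CBX2 peak at each of the 9 genes, with 1 point for each list. Filled points mark a peak that held the 5′ end, open points one that did not, and points at 0 mark genes with no peak within 5 kb. Foxc1 and Foxc2 are at 0 in all lists, and the K27M point is the highest at each of the other 7 genes.

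Summed over the 9 genes, Control peaks covered 89.6 kb, EZHIP peaks 71.4 kb and K27M peaks 129.2 kb. The median width over the genes with a peak was 12.6 kb in Control (7 genes), 13 kb in EZHIP (5 genes) and 16.2 kb in K27M (7 genes). The EZHIP median rests on a different set of genes, since Foxe1 and Foxf2 had a Control peak but no EZHIP peak within 5 kb. In rank by width, the Foxa2 peak was 42nd of the Control list, 44th of the EZHIP list and 24th of the K27M list, and the Foxe1 peak was 242nd of the Control list.

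At the 5 genes with a peak within 5 kb in both lists, the EZHIP peak was narrower than the Control peak at Foxa1, Foxa2 and Foxd3 and wider at Foxb1 and Foxl2. The log2 ratio of EZHIP to Control width ranged from -0.4 at Foxa2 to 0.53 at Foxl2, with a median of -0.3. Counting by overlap of the peaks themselves adds Foxf2, whose EZHIP peak of 3.8 kb lay inside the Control peak of 9 kb (log2 ratio -1.24), and makes 4 of 6 genes narrower in EZHIP with a median of -0.34. By the same overlap, the 192 Control peaks of the whole list that met an EZHIP peak had a median of -0.09, and 61.5% were narrower in EZHIP. The direction of the EZHIP difference was thus mixed among these genes, as it was over the whole list.

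At all 7 genes with a peak in both lists, the K27M peak was wider than the Control peak. The log2 ratio ranged from 0.1 at Foxb1 to 1.81 at Foxe1, with a median of 0.72. The 229 Control peaks that overlapped any K27M peak had a median of 0.32, and 75.5% of them were wider in K27M. The Control peak lay wholly inside the K27M peak at all 7 genes, which was also the case for 72.9% of those 229 Control peaks. The EZHIP peak lay wholly inside the K27M peak at 5 of 6 genes, Foxf2 included and with Foxb1 the exception, against 75.5% of all EZHIP peaks with a K27M counterpart. The EZHIP and K27M width ratios to Control share the Control library, and both counts of peaks lying inside K27M peaks share the K27M library. The K27M list was wider as a whole. When only the length inside the gene body and its 5 kb flanks was measured, the median log2 ratio of K27M to Control was 0.12. That measure has a ceiling, because length added outside the flanks does not count. At Foxa1 the Control peak already filled the whole stretch, so no widening could appear there.

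Of all Control peaks of at least 10 kb, 90.2% (95% Clopper-Pearson interval 83.1 to 95%, counting error only) overlapped an EZHIP peak, and of narrower ones 51.4% (43.8 to 59%) did. The 4 forkhead genes with Control peaks of that width (Foxa1, Foxa2, Foxb1 and Foxd3) all kept an EZHIP peak. Of the other 3 genes, Foxl2 and Foxf2 had an EZHIP peak overlapping the Control peak and Foxe1 did not.

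CpG islands were found at the start of all 9 genes, that is within 1000 bp of the 5′ end. An island was a run of 500 bp windows with at least 55% G+C and a ratio of observed to expected CpG of 0.65 or more. The island at the start measured 1.85 kb at Foxa1, 1.9 kb at Foxa2, 2.5 kb at Foxb1 and 2.65 kb at Foxd3, and these 4 islands lay completely inside the Control peak. At Foxl2, 1.58 kb of the 2.8 kb island lay in the Control peak and all of it in the EZHIP and K27M peaks. At Foxe1, 0.23 kb of the 3.3 kb island lay in the Control peak and all of it in the K27M peak. At Foxf2, none of the 2.05 kb island lay in the Control or EZHIP peak and all of it in the K27M peak. In K27M the island at the start was thus covered completely at each of the 7 genes with a peak, as in Control at 4 of them. In EZHIP it was covered completely at Foxa1, Foxb1, Foxd3 and Foxl2. At Foxa2 the EZHIP peak held 0.996 kb of the 1.9 kb island.

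Within 20 kb of the start, counting every island, Control peaks held all island sequence at Foxa1, Foxa2 and Foxb1, 90% at Foxd3, 34.6% at Foxl2, 29.8% at Foxf2 and 5.97% at Foxe1. The EZHIP share was lower than in Control at Foxa1 (89.4%), Foxa2 (68%), Foxd3 (80.4%), Foxf2 (12.8%) and Foxe1 (0%), and higher at Foxl2 (61.5%). The K27M share was 98.2% at Foxd3, 98.2% at Foxe1, 80.2% at Foxl2 and 73.4% at Foxf2. Island coverage therefore differed most between Control and K27M at Foxe1, Foxf2 and Foxl2, the genes whose start was outside the Control peak.

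**Figure D3:**
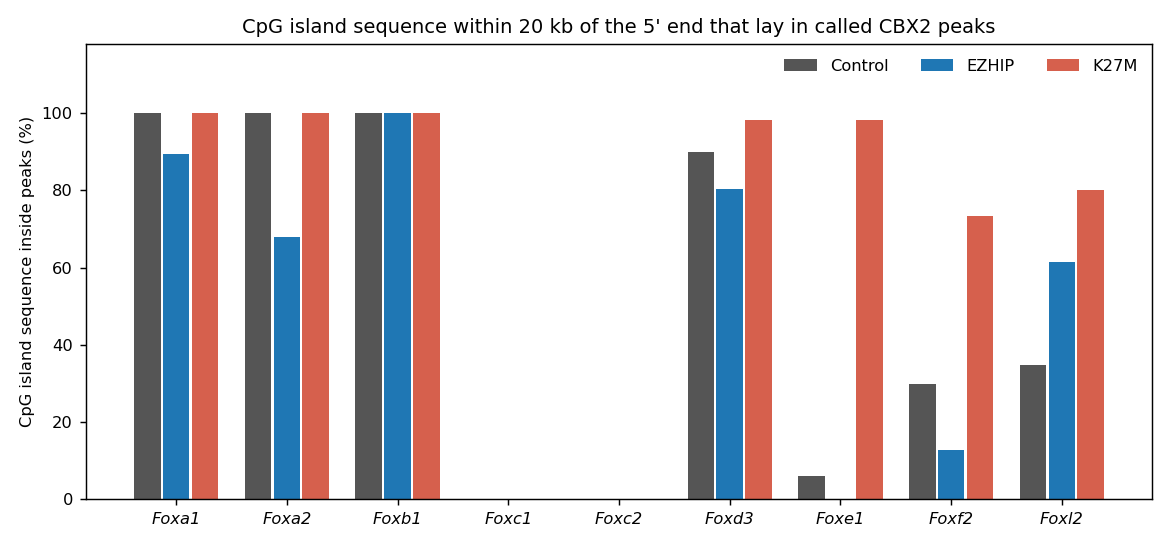
Share (%) of the CpG island sequence within 20 kb of each 5′ end that lay inside called peaks, with 1 bar for each list. The bars of Foxb1 reach 100 in all lists, those of Foxc1 and Foxc2 are at 0, and the bar of Foxe1 is at 5.97% in Control but 98.2% in K27M, with 0 in EZHIP.

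The sequence that was in the K27M peak but not in the Control peak differed between the genes. At Foxa1, Foxa2, Foxb1 and Foxd3 it was poorer in CpG than the Control peak. It held 16.6 CpG per kb at Foxa1 against 36.6 in the Control peak, 8.96 against 26.7 at Foxa2, 8.57 against 27.7 at Foxb1 and 22.1 against 49.9 at Foxd3. At Foxe1 the added sequence was richer, with 57 CpG per kb against 22.5, and so it was at Foxf2 with 37.4 against 24. At Foxl2 the values were close, 37.5 against 35.2. The median over all peaks of a list was 24.8 CpG per kb in Control and 27.8 in K27M. At these last 3 genes the Control peak had left out all or part of the island at the start. At Foxa1, Foxa2, Foxb1 and Foxd3 it already held at least 90% of the island sequence within 20 kb. Little island sequence was therefore left to add at those genes, and the added stretch was only 1.4 kb at Foxb1 and at Foxd3.

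**Figure D4:**
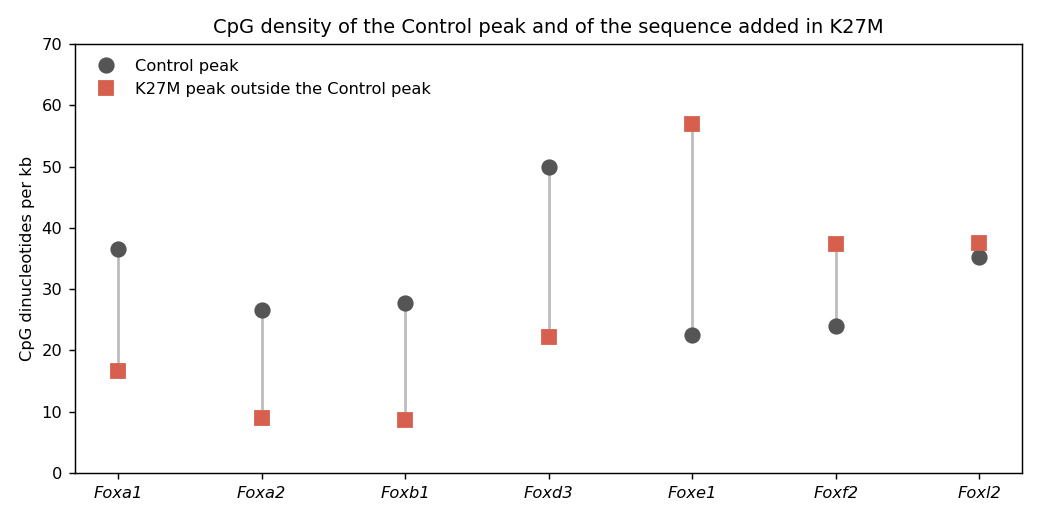
CpG dinucleotides per kb (vertical axis) in the Control peak (circles) and in the part of the K27M peak outside it (squares) for the 7 genes with a peak in both lists. The square lies below the circle at Foxa1, Foxa2, Foxb1 and Foxd3 and above it at Foxe1, Foxf2 and Foxl2.

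Foxc1 and Foxc2, a pair of closely related genes that act in somites, blood vessels, the heart and the eye, were the genes without a peak. Both had more island sequence at the start than the median of 2.5 kb over the 7 genes with a peak, with 3.1 kb in 1 island at Foxc1 and 3.4 kb in 2 islands at Foxc2, and no list had a peak within 20 kb of either start. The nearest peaks to Foxc1 (chromosome 13, 31898515 to 31902504) were those upstream of Foxf2, 184 kb away in Control, 188 kb away in EZHIP and 179 kb away in K27M. The nearest to Foxc2 (chromosome 8, 123640071 to 123642792) lay 36.3 kb away in Control and 32.5 kb away in K27M, but 230 kb away in EZHIP.

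Foxc1 and Foxc2 each lie in a small cluster of forkhead genes, and the clusters are related by descent. On chromosome 13 the order is Foxq1, Foxf2 and Foxc1, with 67.6 kb from the start of Foxq1 to that of Foxf2 and 181 kb from there to Foxc1. On chromosome 8 it is Foxf1, Foxc2 and Foxl1, with 31.8 kb between the first 2 starts and 11.8 kb between the last 2. In both clusters the only peaks lay upstream of the Foxf gene, with the K27M peak at Foxf2 also reaching into the gene, and Foxq1, Foxl1, Foxc1 and Foxc2 had none. This likeness was noticed after the values were seen.

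At Foxf1, a gene of the lateral plate and lung mesenchyme, the Control peak was 5.2 kb wide and ended 4.49 kb before the start, as the Control peak of Foxf2 ended 3.29 kb before its start. The K27M peak at Foxf1 was 10.8 kb wide and ended 0.686 kb before the start, whereas at Foxf2 the K27M peak ran past it. No EZHIP peak was called at Foxf1. The Foxf1 peaks overlapped Fendrr, a long non-coding RNA gene transcribed away from Foxf1 (1110050K14Rik in the annotation), and the Foxf2 peaks of Control and K27M held the non-coding transcript Gm11378.

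**Figure D5:**
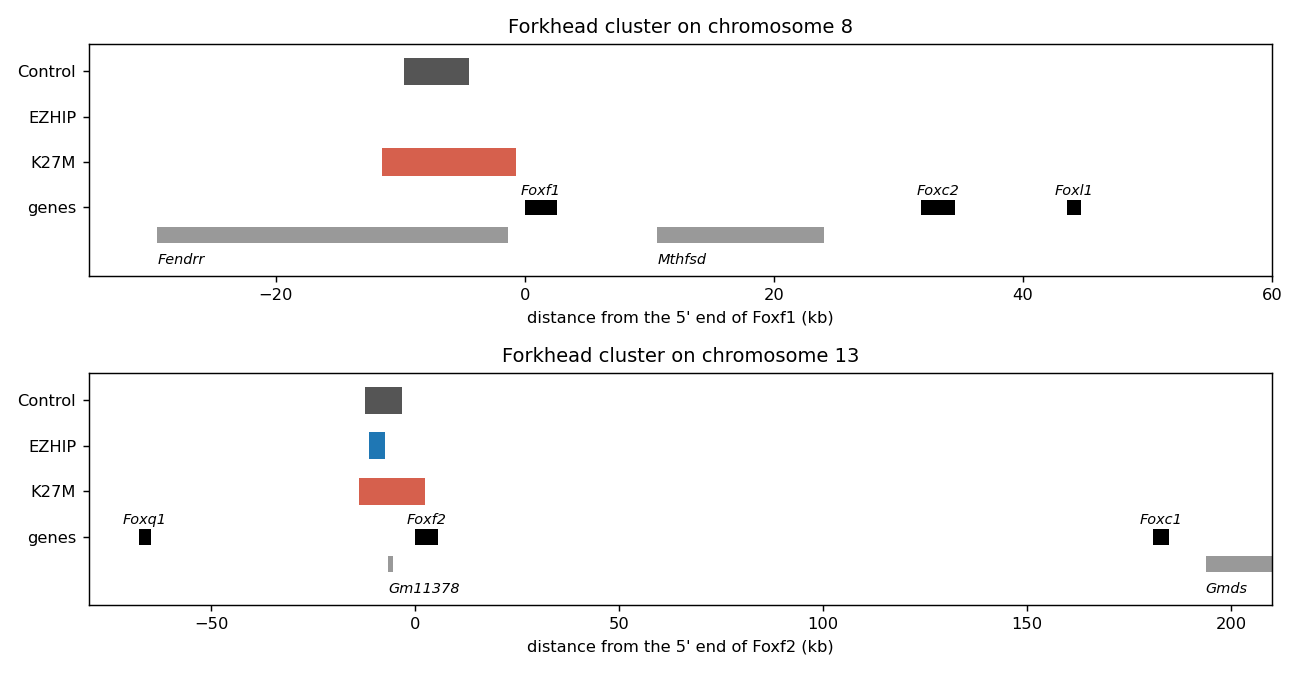
Called CBX2 peaks across the forkhead clusters of chromosomes 8 and 13, by distance in kb from the 5′ end of Foxf1 and of Foxf2, with forkhead genes in black and neighbouring genes in grey. The peaks of each cluster lie upstream of the Foxf gene, with that of K27M at Foxf2 reaching 2.31 kb past the start, and none lies at Foxc1, Foxc2, Foxl1 or Foxq1.

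Among the remaining 35 forkhead genes, 6 had a peak in Control, 3 in EZHIP and 6 in K27M. Foxd1, a gene of the kidney stroma, Foxd4 and Foxi3, a gene of ectodermal placodes, had one in every list. Foxb2, Foxd2 and Foxf1 had one in Control and K27M. The remaining 29 genes had none in any list. They included the Foxo effectors of insulin signalling (Foxo1, Foxo3, Foxo4 and Foxo6), the Foxp, Foxj, Foxk and Foxn genes, the cell-cycle factor Foxm1, and Foxq1 and Foxl1 of the clusters on chromosomes 13 and 8. Foxl1 is listed as a pseudogene in this annotation.

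The Foxd1 peak was nearly constant, with 15 kb in EZHIP, 16.2 kb in Control and 16.4 kb in K27M, and its start was inside in every list. At Foxd4 the peak measured 6 kb in Control but 8.2 kb in EZHIP and 11.8 kb in K27M, again with the start inside. At Foxi3 it measured 3 kb in Control and 2.8 kb in EZHIP against 8.2 kb in K27M, and the EZHIP peak ended 125 bp before the start. The Foxb2 peak measured 3.2 kb in Control and 6.2 kb in K27M with the start inside. The Foxd2 peak measured 3.2 kb in Control and 5.6 kb in K27M and began 4.7 kb and 3.5 kb downstream of the start. It covered none of the Foxd2 gene body in either list, and it held the start of the long non-coding RNA gene 9130410C08Rik. All 6 genes had a wider peak in K27M than in Control, by only 0.2 kb at Foxd1.

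An island at the start was found at all of the other forkhead genes with a peak and at many without one. Of the 35 genes, 26 had an island there, and 20 of these had no peak in any list. None of the 9 genes without an island had a peak. The islands of the 6 genes with a peak were between 1.5 and 3.15 kb long, with a median of 2.55 kb. Among the 20 without a peak the length ran from 0.75 kb to 4.25 kb, with a median of 1.62 kb and the longest at Foxo3.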

How the data were processed

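The authors aligned reads to mm9 and to a spike-in genome with Bowtie 1.0.0 (version from the submitters' processing notes) and called broad CBX2 peaks per library with MOSAiCS-HMM. Whether an input or a scaling entered the calls is not given in the sources used here. The paper gives a maximum gap of 10000 bp for the calls, so a called peak may span gaps without signal. Some peaks of each list still lay closer together than that. Whether the peaks at these genes span such gaps cannot be seen from the lists, so a moved edge need not be a continuous extension. The deposited lists hold 3 columns (chromosome, start, end) in steps of 200 bp, with no score. Both position columns were shifted up by 1 base, and positions are given here as 1-based with the last base included. Genes came from GENCODE vM1 and sequence from NCBIM37, the assembly of mm9.

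The 9 genes, the family list and the measures were chosen with earlier results of these data known. All 9 genes were named, and of the other forkhead genes those with a peak were described and the rest counted, with some named. Some items are not reported here. Other genes were named where they overlapped these peaks or lay in the same clusters. An overlap of at least 1 bp counted. Island windows of 500 bp were moved in steps of 50 bp. Words of 32 bases were sampled every 100 bp. Values were computed in Python 3.11.15 with numpy 2.4.6 and scipy 1.17.1, on functions tested on simulated data. The libraries labelled K27R and EEDnull were not analysed here.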

Additional observations from a re-analysis of the deposited data

How the results depend on the processing

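Under the other settings tried, 5 values moved by more than 1.5 times. Joining peaks closer than 10000 bp merged 9 in Control, 4 in EZHIP and 5 in K27M, none at these genes, so that setting could not move a value here. No median ratio changed sign. With only peaks of at least 5000 bp, 3 of the other forkhead genes had a peak in Control, and the Control peak of Foxe1 was dropped. Counting only length inside the gene body and 5 kb flanks, the median log2 ratio of K27M to Control was 0.12. This setting leaves out any length added beyond the flanks, so it cannot show how much of the widening lay there. The peak of Foxf2 was lost in Control with the gene body alone and gained in EZHIP with 10 kb on each side. A stricter threshold by score could not be applied without scores. No paired analysis was possible because a group was a single library, which also left none to omit. Both the number and the width of called peaks can rise with read depth, which is unknown here.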
